A study of Mus musculus with 6 samples.

Results

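The genes described here encode the proteins of the cytosolic ribosome. They were taken as the protein-coding rows of the deposited count table whose symbol is Rpl, Rps or Rplp followed by a number and at most one letter of the set a, x and l. The rule found 79 of 55493 genes, 49 of the large and 30 of the small subunit. Of these, 77 had enough reads to be tested, 47 of the large and 30 of the small subunit. The 2 others, Rpl3l and Rpl10l, are treated with the paralogs below.

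RNA was sequenced from microglia, the macrophages that reside in brain tissue, after a sort for low CD45 and for CD11b from dissected, perfused brain. The mice were male, 4 months old at the start, carried the human LILR-region transgene called ILT Telo Tg and the 5XFAD transgenes, which give an amyloid model of Alzheimer disease, and both groups shared this genotype. For 8 weeks they received a weekly intraperitoneal injection, 8 in all, at 60 mg/kg, of the Fc-mutant anti-LILRB4 antibody ZM3.1 (ILT3 is another name of LILRB4, a receptor that restrains myeloid cells) or of the Fc-mutant control antibody 27D6. There were 3 libraries in each group, called control 1 to 3 and anti-LILRB4 1 to 3, and the series asks what blocking LILRB4 in vivo does to these cells. Whether each library is a separate animal is not said in the labels. The p-values therefore measure only the spread among these 6 libraries, which may be technical.

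Ribosomal proteins fold around ribosomal RNA to make a small subunit, which holds and decodes the mRNA, and a large subunit, which joins amino acids and passes the growing chain through its exit tunnel. Their mRNAs are short and abundant, and most begin with a run of pyrimidines at the first base, the terminal oligopyrimidine or TOP motif. Through this motif, and the RNA-binding protein LARP1, the kinase complex mTORC1 turns their translation up or down together. Mammalian cells keep the proteins close to equal numbers per ribosome, and several members also act outside it.

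The starts of the 6 members with an unadjusted p under 0.05 and an entry in the RefSeq promoter table are printed here to show where such runs lie. Each window runs from 20 bases before to 10 bases after the start of the RefSeq transcript (GRCm38.p6), 5′ to 3′ on the gene's strand. Capitals mark unbroken runs of at least 6 C or T.
Rpl4: agTCTTTCCTTTTCCTgtgggagcagccgg
Rplp2: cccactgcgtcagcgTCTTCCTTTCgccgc
Rpl38: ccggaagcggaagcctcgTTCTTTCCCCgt
Rpl27: ccggaacgctctgttcctgtctgctgctcg
Rps21: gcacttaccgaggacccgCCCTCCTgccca
Rps28: tcctgggtaccgcgtgcggtctcgcgagag
The windows lie at chr9:64173367-64173396 (plus strand, Rpl4), chr7:141447631-141447660 (plus, Rplp2), chr11:114668560-114668589 (plus, Rpl38), chr11:101442225-101442254 (plus, Rpl27), chr2:180257359-180257388 (plus, Rps21) and chr17:33824553-33824582 (minus, Rps28). In Rpl4 the run ends before the RefSeq start, which is base 21 of each window, while the GENCODE M21 gene start, 64173375, lies within the run. The GENCODE M21 gene starts of Rpl27 (101442298), Rplp2 (141447370) and Rpl38 (114668524) lie outside the printed windows, which do not show them. The run was 14 bases long in Rpl4, 10 in Rplp2 and Rpl38 and 7 in Rps21. The windows of Rps28 and Rpl27 hold no run of at least 6, and for Rpl27 this says nothing about its GENCODE start. The genes at both ends of the fold changes given below, Rpl4 and Rps28, differ in these letters. Yet Rplp2, Rpl38 and Rps21, which were lower like Rps28, hold a run like Rpl4. This describes the windows and not a site.

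RefSeq windows of 300 bases were matched by symbol for 59 of the 79 members, 71 windows in all. A run of at least 8 C or T within 30 bases of the start, read on the gene's strand, was present in 66.2% of them (47 windows), in 27.3% of all 32851 promoter windows and in 25.3% of the windows of other tested protein-coding genes. Read on the other strand the share was 18.3% for the members and 30.7% for all windows. Both subunits had the run about equally often, in 68.2% of 44 large and 63.0% of 27 small subunit windows. CCGGAAG, on either strand, stood in 35.2% of the members' windows, 8.86% of all windows and 17.5% of those of other tested protein-coding genes. TATAAA in the 50 bases before the start was in 0 of 71 windows, in 2.63% of all windows and in 1.41% of those of other tested protein-coding genes. At such low shares 71 windows are too few to tell the members apart. The tested members with the C or T run, 43 genes, had a median log2 fold change of -0.12, and the 14 without it -0.15.

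Total counts ran from 39805118 to 56345514 per library, and every pair of libraries differed by more than sampling noise. The 8 microglia markers were all measured and summed to 37100 to 39255 CPM in controls and 39540 to 40229 in anti-LILRB4 libraries, without overlap (counts scaled to a library size adjusted by TMM, so that libraries can be compared). Neutrophil markers, 9 of 10 tested, summed to 572 to 1338 CPM in controls and 135 to 1130 in anti-LILRB4 libraries, with the highest value in control 1 and the next in anti-LILRB4 2. Single neutrophil markers differed. S100a8, S100a9 and Camp were highest in control 1, whereas Ngp, Ltf and Lcn2 were highest in anti-LILRB4 2. Retnlg and Mmp8 were lower in every anti-LILRB4 library than in any control. Monocyte markers, 5 of 6 tested, summed to 43.4 to 91.0 and 27.1 to 69.5 CPM, also highest in control 1. The 8 immediate early genes summed to 480 to 497 CPM in controls and 389 to 406 in anti-LILRB4 libraries, and mitochondrially encoded genes took 3.73 to 4.69% and 2.80 to 3.29% of counts. No listed marker was at 0 in all libraries, and the part of these differences in the results below was not tested. In such bulk samples fewer cells of a type and less RNA per cell cannot be told apart.

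Ribosomal protein mRNAs were abundant in these microglia, and one control library held more of them than the other 5. The members took 5.11, 3.97 and 4.16% of all counts in control 1, 2 and 3, and 4.01, 3.89 and 4.28% in anti-LILRB4 1, 2 and 3. Control 1 stood above the rest, and the other 5 libraries lay between 3.89 and 4.28% with the groups interleaved. The mean was 4.41% ± 0.607 (SD, n = 3) in controls and 4.06% ± 0.198 in anti-LILRB4 libraries (two-sided exact permutation test, p = 0.6, where 0.1 is the smallest p that 3 against 3 allows). Without control 1 the control mean was 4.07%. Pseudogene rows also had their highest share in control 1 and their lowest in anti-LILRB4 2. The 318 ribosomal protein pseudogene rows together took 0.262, 0.199 and 0.202% in controls and 0.212, 0.189 and 0.208% in anti-LILRB4 libraries.

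Gene by gene the same library stood out. Control 1 was the highest of the 6 libraries for 58 of 77 members (75.3%), compared with 23.0% of all 18210 genes tested and 540 of 1543 other genes of at least 100 CPM. Anti-LILRB4 3 was highest for 16, anti-LILRB4 1 for Rpl24 and Rps10, and anti-LILRB4 2 for Rpl4. The lowest library was anti-LILRB4 2 for 38 members and control 2 for 30. Between the highest and lowest library the median member differed 1.43-fold, and 57 of 77 stayed within 1.5-fold. Other protein-coding genes of at least 100 CPM, 1488 in number, had a median of 1.31-fold.

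**Figure D1:**
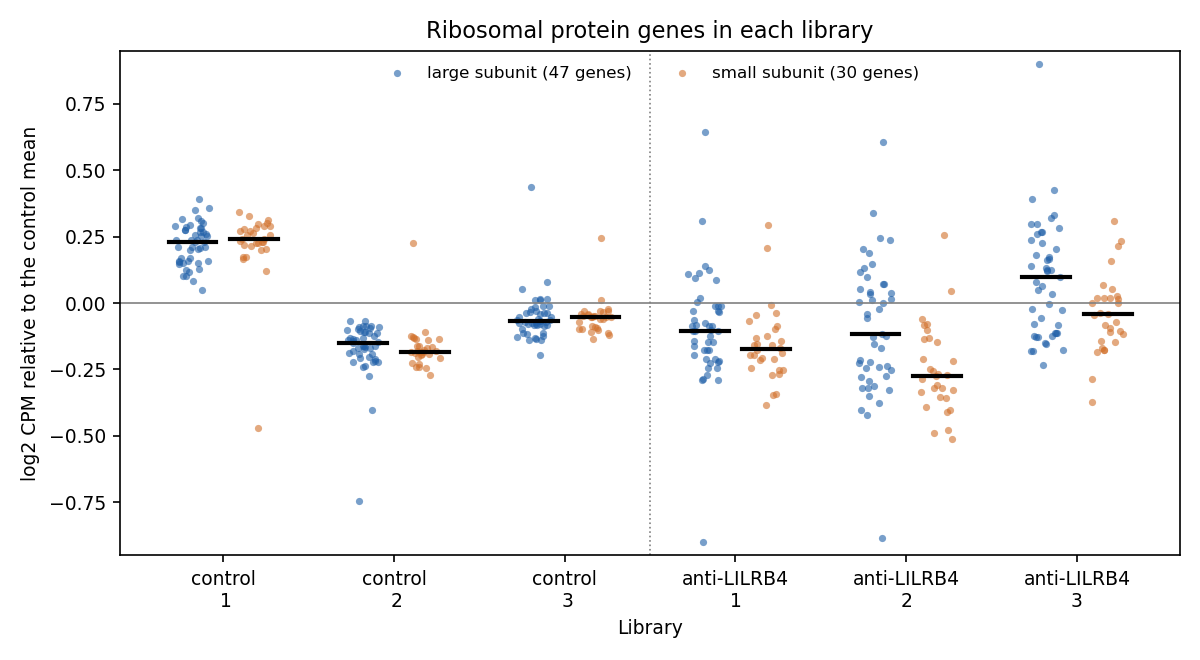
Log2 CPM of each tested ribosomal protein gene relative to its own control mean (y axis) in each of the 6 libraries (x axis), with large subunit genes in blue, small subunit genes in orange and black bars for medians. In control 1 all 47 large and 29 of 30 small subunit genes lie above 0, in control 2 only 1 gene does, and 2 points of Rpl39l beyond 0.9 are drawn at that limit.

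Of the 77 tested members 51 had a negative and 26 a positive log2 fold change (anti-LILRB4 minus control), with a median of -0.12, beside 50.9% negative and a median of -0.01 over all genes tested. In edgeR's quasi-likelihood test with Benjamini-Hochberg adjustment, 0 members were called at an adjusted p of 0.05, as were 0.0% of all 18210 genes, and the smallest adjusted p of a member was 0.426. At an unadjusted p under 0.05, 6 members were lower and 2 higher, where 3.91% and 4.12% of all genes tested were lower and higher (8.03% together). All anti-LILRB4 libraries lay below all controls in 5 members (Rps28, Rps21, Rplp2, Rpl38 and Rpl23) and above them in 3 (Rpl4, Rpl29 and Rpl5), beside 7.79% and 6.94% of all genes. Neither count of members without overlap exceeded its background share. DESeq2 called 1.10% of 15378 genes and, among the members, only Rpl4, which was higher, and limma-voom called 0 members.

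The direction of the bulk of the members rested on control 1. Without that library the median over the members was 0.01, with 35 negative and 42 positive, and at an unadjusted p under 0.05 only Rps28 was lower while Rpl4, Rpl21, Rpl17 and Rpl29 were higher. Without control 2, 24 members were lower at that threshold and 1, Rpl4, higher. The number lower was 1, again Rps28, without anti-LILRB4 1 and without anti-LILRB4 2.

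The ratio of large to small subunit reads did not overlap between the groups in these 6 libraries. For every read of a small subunit member there were 0.971, 1.01 and 1.00 reads of large subunit members in control 1, 2 and 3, and 1.05, 1.13 and 1.08 in anti-LILRB4 1, 2 and 3. The groups did not overlap, and the mean was 0.995 ± 0.0209 (SD, n = 3) in controls and 1.09 ± 0.0419 in anti-LILRB4 libraries. No test is given for this ratio, since it is a score over the members. Control 1, the library with the most ribosomal protein reads, had the lowest ratio, and anti-LILRB4 2, with the fewest per count, the highest.

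The share of all counts was also taken for each subunit. Small subunit members took 2.59, 1.98 and 2.08% of counts in controls and 1.96, 1.83 and 2.06% in anti-LILRB4 libraries (two-sided exact permutation test, p = 0.2, unadjusted). Large subunit members took 2.51, 1.997 and 2.08% in controls and 2.05, 2.07 and 2.22% in anti-LILRB4 libraries (p = 0.8 in the same exact test). The groups overlapped for both shares. Without control 1 the control mean was 2.03% for the small and 2.04% for the large subunit, beside anti-LILRB4 means of 1.95% and 2.11%. With the share of all members, 3 shares were tested, and the Benjamini-Hochberg adjusted p of these exact tests was 0.6 for the small subunit and 0.8 for the other 2.

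Among the 30 small subunit members 25 were negative, with a median of -0.17 and a range from -0.43 to 0.19, and 3 were lower and 0 higher at an unadjusted p under 0.05. Rps6, Rps4x, Rps2 and Rps10 were among the 5 positive ones. Among the 47 large subunit members 26 were negative and 21 positive, with a median of -0.05 and a range from -0.33 to 0.42, and 3 were lower and 2 higher. Without control 1 the medians were -0.06 for the small and 0.10 for the large subunit, a gap of 0.16 in place of 0.12.

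Seen library by library, the median large subunit member stood above the median small subunit member in all 3 anti-LILRB4 libraries, by 0.07, 0.16 and 0.14 (log2 CPM relative to the control mean). In the controls the gap was -0.01, 0.03 and -0.01. In anti-LILRB4 3, 28 of 47 large and 12 of 30 small subunit members were above the control mean, and in anti-LILRB4 2 the counts were 20 and 2.

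**Figure D2:**
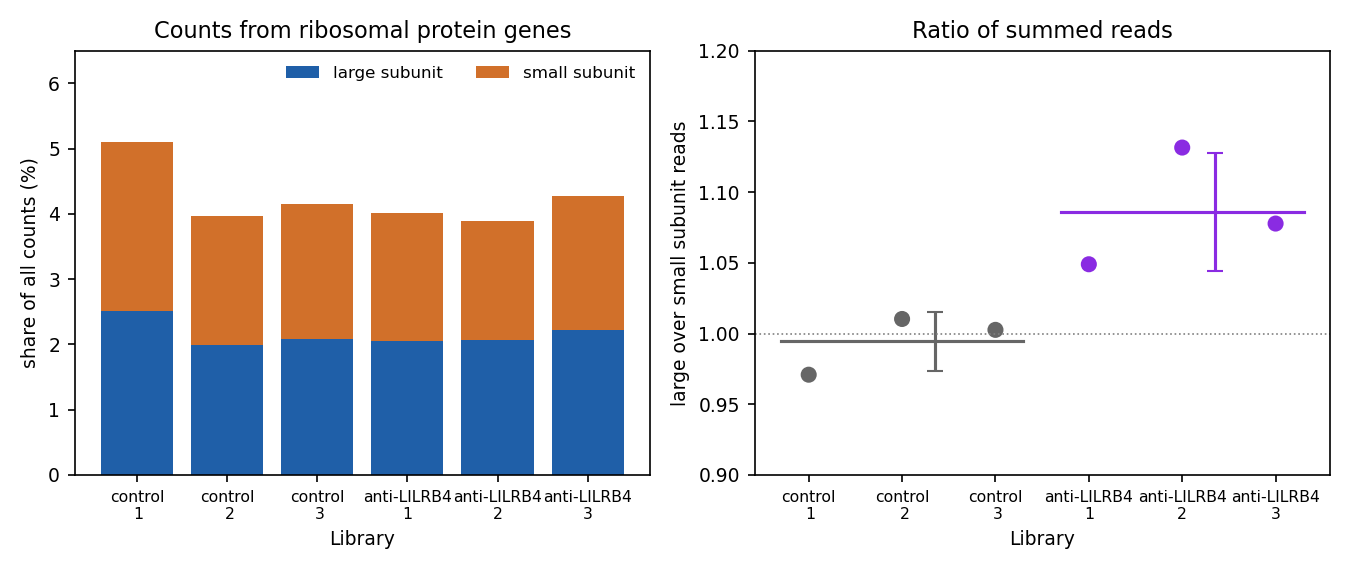
Left, share of all counts in percent from large (blue) and small (orange) subunit genes, stacked, in each library; right, reads of large over reads of small subunit genes in each library, on an axis that starts at 0.9. The share is highest in control 1 (5.11%), and the ratio is between 0.971 and 1.01 in controls and between 1.05 and 1.13 in anti-LILRB4 libraries.

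Some small subunit proteins lie on the side where mRNA leaves the ribosome. All 4 genes of the mRNA exit and platform group, among them Rps14, Rps26 and Rps28, were negative, with a median of -0.26, and -0.12 without control 1. Rps28, a small protein beside the mRNA exit channel (ENSMUSG00000067288), was measured at 751, 514 and 540 CPM in control 1, 2 and 3 and at 467, 416 and 458 CPM in anti-LILRB4 1, 2 and 3. All anti-LILRB4 values lay below all controls, and control 1 stood well above the other controls. The means were 602 ± 130 and 447 ± 27.1 CPM (SD, n = 3), a log2 fold change of -0.43 (standard error 0.14, edgeR adjusted p 0.506), and -0.24 without control 1.

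Rps14, a platform protein whose loss from one chromosome copy is a feature of human 5q- syndrome, was the most abundant small subunit member by CPM. It was at 3257, 2313 and 2446 CPM in controls and 2081, 1880 and 2337 CPM in anti-LILRB4 libraries. Anti-LILRB4 3 lay within the control range, so the groups overlapped. Its log2 fold change was -0.35 (standard error 0.13, edgeR adjusted p 0.559), and -0.18 without control 1. Rps26, which contacts the mRNA upstream of the start codon, was at -0.09, and at 0.03 without control 1.

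Rps21, a small subunit protein needed for maturation of its ribosomal RNA (ENSMUSG00000039001), was at 535, 357 and 418 CPM in controls and 330, 325 and 353 CPM in anti-LILRB4 libraries. The highest anti-LILRB4 library lay just under the lowest control. Its log2 fold change was -0.38 (standard error 0.14, edgeR adjusted p 0.549), and -0.21 without control 1.

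In the head and beak of the small subunit 6 of 7 members were negative, with a median of -0.22 (-0.09 without control 1). Rps16, at the head near the decoding site, had 724, 519 and 560 CPM in controls and 500, 454 and 526 CPM in anti-LILRB4 libraries, with 1 anti-LILRB4 library above a control (log2 fold change -0.29, and -0.13 without control 1). Rps27a, which is made as a fusion with ubiquitin, had a log2 fold change of -0.22. The single positive value was that of Rps10, at 0.03 and with few reads. On the mRNA entry and decoding side (Rps2, Rps3, Rps9 and Rps23) 3 of 4 were negative, with a median of -0.16, and -0.02 without control 1. Rps9 had 2327, 1839 and 1923 CPM in controls and 1796, 1617 and 1876 CPM in anti-LILRB4 libraries, overlapping groups.

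Rps29 and Rps27, small zinc-binding proteins, followed control 1 closely. Rps29 was at 2141, 1670 and 1705 CPM in controls and 1542, 1475 and 1685 CPM in anti-LILRB4 libraries (log2 fold change -0.23, and -0.11 without control 1). Rps27 was at 1211, 826 and 899 CPM in controls and 803, 726 and 851 CPM in anti-LILRB4 libraries (log2 fold change -0.30, and -0.12 without control 1). In both genes anti-LILRB4 3 was above control 2, so the groups overlapped.

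Rps6, the small subunit protein phosphorylated by S6 kinase below mTORC1, went another way. It was at 481, 345 and 362 CPM in controls and 452, 371 and 436 CPM in anti-LILRB4 libraries. All 3 anti-LILRB4 libraries were above control 2 and control 3 and below control 1. Its log2 fold change was 0.08 (standard error 0.14, edgeR adjusted p 0.912), and 0.25 without control 1. Phosphorylation was not measured.

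The member with the smallest p of all was in the large subunit. Rpl4, which reaches into the peptide exit tunnel (ENSMUSG00000032399), was at 260, 230 and 248 CPM in controls and 304, 375 and 309 CPM in anti-LILRB4 libraries. Every anti-LILRB4 library was above every control, and anti-LILRB4 2 was the highest. The means were 246 ± 14.9 and 329 ± 39.2 CPM (SD, n = 3), and the log2 fold change was 0.42 (standard error 0.11), and 0.46 without control 1. It was not called by edgeR (adjusted p 0.426) and was called by DESeq2 (adjusted p 0.0480). In the authors' deposited table its adjusted p was 0.0532. Its exons overlap those of the small nucleolar RNA genes Snord16a and Gm22455, which had 0% of its reads.

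Rpl4 had the largest fold change of the exit tunnel group, whose split in direction over all libraries rested on control 1. Of its 9 members 4 were negative and 5 positive, with a median of 0.03, and 0.13 without control 1. Rpl39, a very small protein of the tunnel wall, was at 450, 317 and 347 CPM in controls and 305, 278 and 331 CPM in anti-LILRB4 libraries, overlapping groups, a log2 fold change of -0.29, and -0.13 without control 1. Rpl17 and Rpl31 at the tunnel exit had log2 fold changes of 0.18 and 0.07. Without control 1 Rpl39 was the only negative one. Rpl17 was then at 0.31, Rpl31 at 0.18, Rpl23a at 0.16, Rpl19 at 0.13, Rpl35 at 0.10, Rpl26 at 0.05 and Rpl22 at 0.03.

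Rpl29, a heparin-binding protein of the large subunit surface (ENSMUSG00000048758), was the other member higher at an unadjusted p under 0.05. It was at 110, 98.0 and 101 CPM in controls and 111, 130 and 138 CPM in anti-LILRB4 libraries. The groups did not overlap, but anti-LILRB4 1 was within 1 CPM of control 1. Its log2 fold change was 0.30 (standard error 0.12, edgeR adjusted p 0.574).

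The P stalk is the flexible arm of the large subunit that recruits elongation factors, and its parts differed. Rplp2 (ENSMUSG00000025508), one of its acidic tip proteins, was at 1339, 1034 and 1115 CPM in controls and 946, 925 and 1024 CPM in anti-LILRB4 libraries. All anti-LILRB4 libraries were below all controls, anti-LILRB4 3 by a small margin. Its log2 fold change was -0.27 (standard error 0.11, edgeR adjusted p 0.572), and -0.16 without control 1. The partner tip protein Rplp1 was at -0.19 with overlapping groups, and at -0.05 without control 1, and the base protein Rplp0 at 0.10, at 1006, 807 and 916 CPM in controls and 899, 952 and 1069 CPM in anti-LILRB4 libraries. Rpl12, which joins the stalk to the ribosome, was at -0.16, and at 0.03 without control 1.

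The remaining large subunit members with small p-values were lower. Rpl38, which is known from mice to affect translation of Hox mRNAs (ENSMUSG00000057322), was at 372, 272 and 280 CPM in controls and 250, 228 and 260 CPM in anti-LILRB4 libraries, without overlap, a log2 fold change of -0.33 (edgeR adjusted p 0.577) and -0.17 without control 1. Rpl27 (ENSMUSG00000063316) was at 615, 448 and 482 CPM in controls and 419, 393 and 450 CPM in anti-LILRB4 libraries. Anti-LILRB4 3 and control 2 crossed, and the log2 fold change was -0.29, and -0.14 without control 1. Rpl23, a protein that binds the p53 regulator MDM2 when free, was lower without overlap, with a log2 fold change of -0.25, and -0.13 without control 1.

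Rpl5 and Rpl11, which form the 5S particle with 5S ribosomal RNA and also bind MDM2, were both positive. Rpl5 was at 227, 205 and 228 CPM in controls and 237, 235 and 264 CPM in anti-LILRB4 libraries, above all controls, a log2 fold change of 0.16 (edgeR adjusted p 0.745). Its exons overlap those of Fam69a, whose row held 14.7% as many reads. The groups of Rpl11 overlapped, at 0.03. Near the peptidyl transferase centre, where peptide bonds form, Rpl3 was at 0.09, Rpl8 at 0.17 and Rpl10 at -0.19 (-0.06 without control 1). Rpl10a of the L1 stalk was at 0.01.

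**Figure D3:**
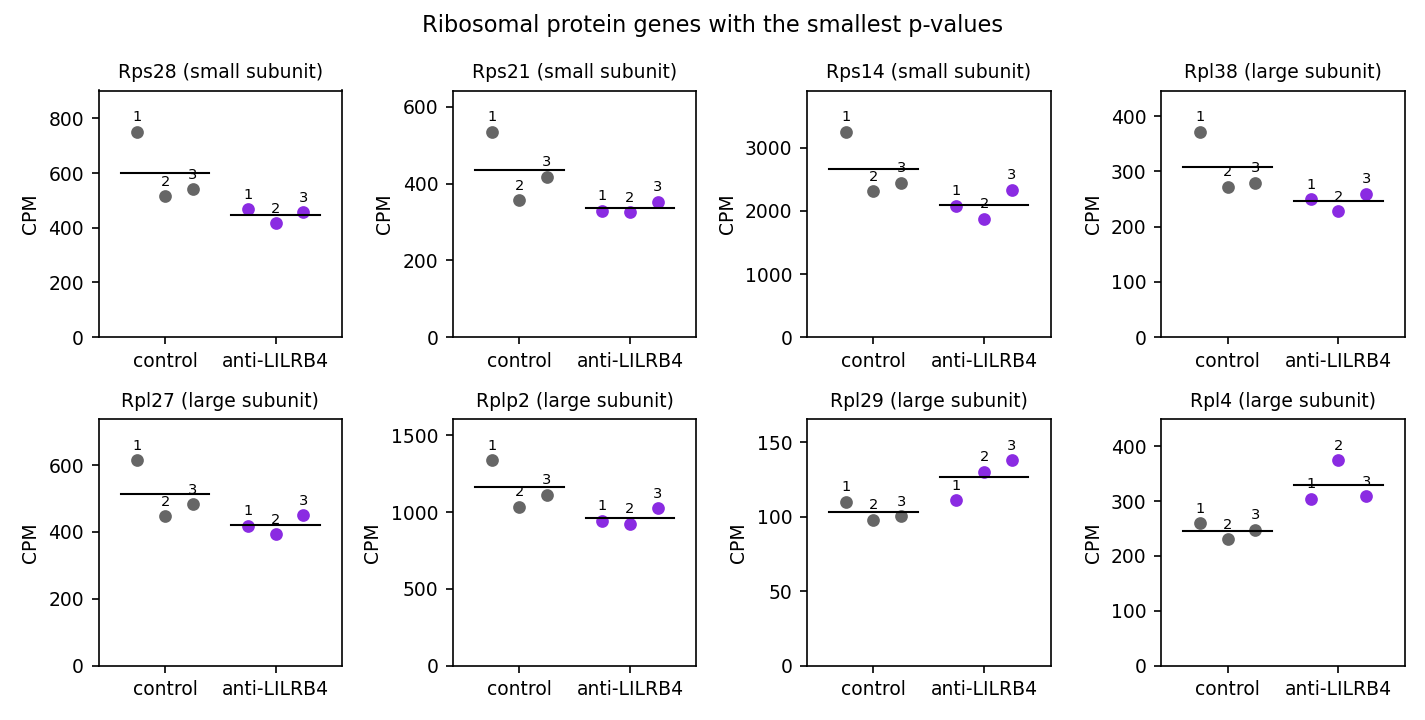
CPM (y axis, from 0) of the 8 ribosomal protein genes with an unadjusted p under 0.05 in the 3 control (grey) and 3 anti-LILRB4 (purple) libraries, with replicate numbers and black bars for group means. Control 1 is the highest library in the 6 genes that were lower, and the groups of Rps14 and Rpl27 overlap, while Rpl4 and Rpl29 are higher in every anti-LILRB4 library.

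Single members departed from the others in single libraries by moderate amounts. After the median of all members in a library was taken off, the largest departures among members of at least 10 CPM were those of Rpl4, up by 0.54 on the log2 scale in anti-LILRB4 2, at -0.44 in control 1 and at -0.19 in control 3. Rps28 was the most raised in control 1 (0.23) and control 2 (0.11) and the most lowered in anti-LILRB4 3 (-0.23). Rps21 was the most raised in control 3 (0.14) and the most lowered in anti-LILRB4 1 (-0.11). The other extremes were Rps6 in anti-LILRB4 1 (0.25), Rpl6 in anti-LILRB4 3 (0.23), Rps27l in anti-LILRB4 2 (-0.25) and Rpl13a in control 2 (-0.30). Rpl13a had only 14.6 CPM on average, whereas Rpl4 had at least 9298 reads in every library.

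Transcript length, which the choice of members did not use, was related to the fold change. All 15 members with a coding transcript of up to 500 bases were negative, with a median of -0.23, as were 18 of 24 from 500 to 750 bases (median -0.17). From 750 to 1000 bases 8 of 21 were negative, with a median of 0.03, and above 1000 bases 10 of 17, with a median of -0.02. Other protein-coding genes of at least 100 CPM had 14 of 16 negative up to 500 bases, with a median of -0.09. From 500 to 750 bases 54 of 71 of them were negative (median -0.10), a share close to that of the members. From 750 to 1000 bases it was 54 of 89 (median -0.03), and above 1000 bases 659 of 1308, with a median of 0.00. Without control 1 the members' medians were -0.07, -0.04, 0.11 and 0.06 in these bins, in order of length, with 10 of 15 negative up to 500 bases. The other genes of up to 500 bases then had a median of 0.03 with 7 of 16 negative, and those from 500 to 750 bases -0.01 with 39 of 71 negative. Spearman's rho of fold change with length was 0.51 over the 77 members, 0.55 over the 47 large and 0.47 over the 30 small subunit members. It was 0.20 over 609 other protein-coding genes of at least 100 CPM and up to 2000 bases, and 0.06 over these other genes without control 1. These values run across genes that share the same 6 libraries and are no replicates.

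The relation held its sign with other ways of computing the fold change. After a per-library correction for GC content and merged exon length, rho over the members was 0.40. Merged exon length counts all annotated exons of a gene and can far exceed the coding transcript length used for rho. Rps15a, for example, has 6270 merged exon bases and a coding transcript of 640. The coding transcript length itself was therefore not corrected for. Without control 1, and with no such correction, rho was 0.46. In the single libraries, set against the mean, rho was -0.51, -0.32 and -0.33 in control 1, 2 and 3 and 0.29, 0.45 and 0.44 in anti-LILRB4 1, 2 and 3, so short members were relatively high in each control and relatively low in each anti-LILRB4 library. Over the 609 other genes the same rho was -0.35, 0.10 and 0.06 in the controls and 0.09, 0.23 and -0.0013 in the anti-LILRB4 libraries. GC content had a rho of 0.12. Small subunit transcripts are shorter, with a median of 671 bases against 772.

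Within each bin of length the small subunit had the lower median. Up to 500 bases the median was -0.25 for 7 small and -0.21 for 8 large subunit members, and from 500 to 750 bases it was -0.18 for 10 and -0.14 for 14. From 750 to 1000 bases it was -0.05 for 8 small and 0.04 for 13 large subunit members, and above 1000 bases -0.17 for 5 and 0.06 for 12. Without control 1 the medians in the same order of length were -0.12, -0.07, 0.04 and -0.08 for the small and -0.05, 0.01, 0.12 and 0.17 for the large subunit. The bins are small, and no difference was tested.

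**Figure D4:**
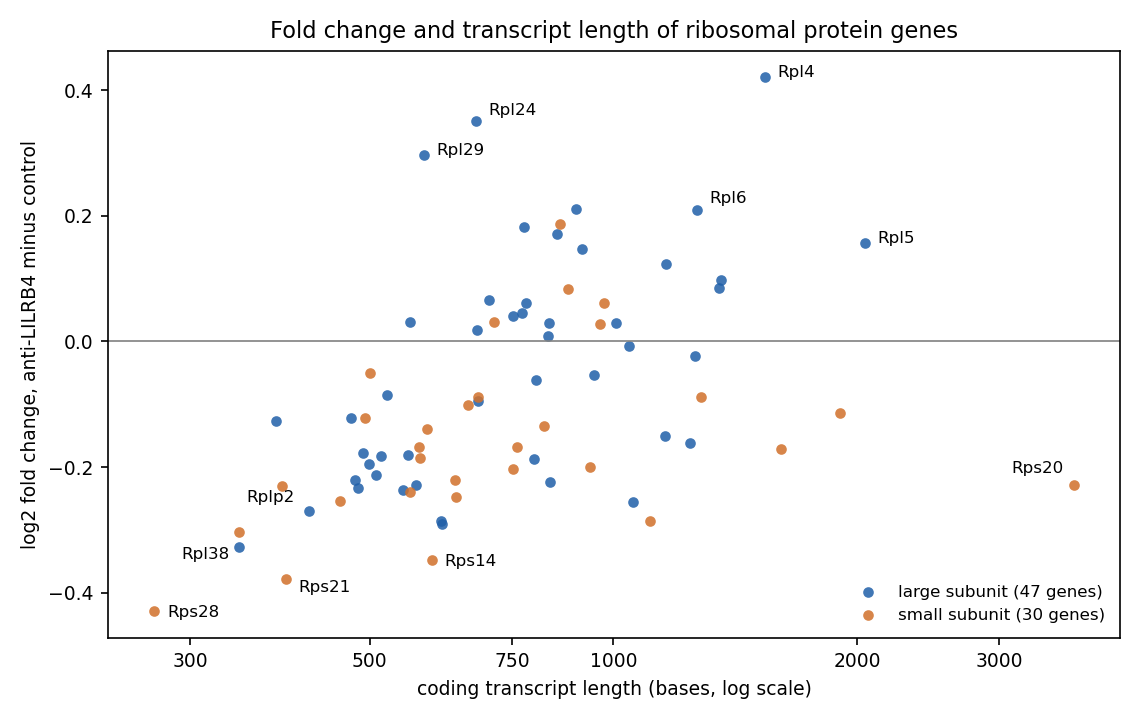
Log2 fold change (anti-LILRB4 minus control, y axis) of the 77 tested ribosomal protein genes by coding transcript length in bases (x axis, log scale), large subunit in blue and small subunit in orange. All 15 genes of up to 500 bases lie below 0, and Rpl4 and Rps28 mark the extremes at 0.42 and -0.43.

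Introns of many of these genes carry small nucleolar RNAs, which guide the modification of ribosomal RNA. An annotated small nucleolar RNA lay within 28 tested members. Hosts had a median log2 fold change of -0.11 with 17 of 28 negative, and the other 49 members a median of -0.13 with 34 negative. Without control 1 these medians were 0.04 and 0.0013. Hosts had longer transcripts, with a median of 906.5 bases against 640.

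Levels of mRNA were far from equal across members, although most sit in the ribosome once each. Per kilobase of coding transcript the median was 524 CPM for the large and 817 for the small subunit. The highest were Rps29 at 4367, Rps14 at 3996 and Rps27 at 2568 CPM per kilobase, and the highest of the large subunit was Rplp2 at 2527. In CPM, 13 members were above 1000, 58 between 100 and 1000 and 6 below 100. Rpl32 and Rpl3 were among the most abundant of the large subunit, and the groups overlapped for both, with log2 fold changes of -0.18 and 0.09.

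The lowest values belonged in part to genes with near-identical copies. Rps10 was at 1.74, 2.85 and 2.89 CPM in controls and 2.99, 2.30 and 2.36 CPM in anti-LILRB4 libraries, while rows of its pseudogenes held 72.6 CPM together. Rpl13a was at 14.6 CPM in both groups, with 10.8 CPM in pseudogene rows. For 33 members pseudogene rows held over 5% as many reads as the gene. How reads that match several places were counted is not given in the sources used here, so the levels of these members are uncertain. With pseudogene reads added, 52 of 77 members were negative, and 5 of the 6 lower members kept an unadjusted p under 0.05 (Rps28, Rps21, Rps14, Rplp2 and Rpl38).

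Reads of overlapping genes cannot be told apart either, because the kit does not mark strand. Another gene overlapped the exons of 36 members, and in 6 of them its row held over 5% as many reads. These were Rpl35 with Arpc5l (69.0%), Rpl18 with Sphk2 (16.3%), Rps25 (15.3%), Rpl5 with Fam69a (14.7%), Rpl31 with Tbc1d8 (7.51%) and Rpl12 with Lrsam1 (5.17%). Of the 8 members with an unadjusted p under 0.05, none was among these 6.

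Paralogs known from single tissues or stress were mostly at low levels. Rpl3l, a muscle paralog of Rpl3, had 8, 1 and 2 reads in controls and 1, 0 and 1 in anti-LILRB4 libraries. Rpl10l, a testis paralog of Rpl10, had 0, 4 and 1 reads and 0, 2 and 8 reads. These values are too few for any comparison. Rpl39l was at 3.14, 1.49 and 3.44 CPM in controls and 0.643, 1.35 and 4.88 CPM in anti-LILRB4 libraries, with the lowest and highest values both in the anti-LILRB4 group. Rps27l, a p53 target, averaged 80.7 ± 11.5 CPM in the controls (SD, n = 3), 71.8 ± 12.4 in the anti-LILRB4 libraries, a log2 fold change of -0.17, and -0.05 without control 1.

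Rps4l, a processed copy of Rps4x on chromosome 6 that the annotation lists as a transcribed pseudogene and the rule leaves out, had a smaller p than any member. It was at 56.9, 56.4 and 45.3 CPM in controls and 40.0, 34.99 and 32.6 CPM in anti-LILRB4 libraries. The groups did not overlap, and its log2 fold change was -0.56 (standard error 0.15, edgeR adjusted p 0.426, DESeq2 adjusted p 0.0347). Rps4x, the source gene, was at 0.06, and its groups overlapped. How many reads of one are counted for the other is unknown.

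Ribosomal proteins with names outside the rule followed the members. Of 7 such genes, all tested, 6 were negative, with a median of -0.12 (0.04 without control 1), and control 1 was the highest library in 7 of 7. Rpsa, also a laminin receptor, was at 434, 326 and 364 CPM in controls and 361, 371 and 419 CPM in anti-LILRB4 libraries, a log2 fold change of 0.03. Fau, which encodes the protein eS30 fused to a ubiquitin-like part, and Rack1, a signalling scaffold on the small subunit head, were at -0.17 and -0.13 with overlapping groups. The paralogs Rpl22l1, Rpl7l1 and Rpl36al were at -0.12, -0.02 and -0.05.

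Other mRNAs listed as having a TOP start, those of translation factors and companions, did not share the small subunit's direction. RefSeq windows were matched for 9 of these genes, and 5 of the 9 windows (55.6%) held the C or T run. Of 15 genes 6 were negative and 9 positive, with a median of 0.06, and 0 were lower and 4 higher at an unadjusted p under 0.05 (Eif4b, Eef2, Eef1a1 and Pabpc1). The transcripts of these 4 have 3854, 3089, 1794 and 2817 bases, where the median member has 712, so the lists differ in length too. Eif4b, a helper of the initiation helicase, was at 22.6, 28.6 and 32.0 CPM in controls and 37.0, 43.9 and 45.7 CPM in anti-LILRB4 libraries. The groups did not overlap, and the log2 fold change was 0.61 (standard error 0.17, edgeR adjusted p 0.439). Eef2, which moves the ribosome along the mRNA, was at 453, 562 and 528 CPM in controls and 598, 722 and 683 CPM in anti-LILRB4 libraries, without overlap, a log2 fold change of 0.38 (edgeR adjusted p 0.477). Eef1a1, which delivers aminoacyl-tRNA, was at 2540, 2124 and 2333 CPM in controls and 2746, 2630 and 2883 CPM in anti-LILRB4 libraries, a log2 fold change of 0.24. For Eef1a1, as for most ribosomal protein genes, control 1 was the highest control, whereas for Eef2 and Eif4b it was the lowest.

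Genes that build the ribosome showed no common direction. Of 33 biogenesis genes 16 were negative and 17 positive, with a median of 0.01, and 2 were lower and 2 higher at an unadjusted p under 0.05. Riok1, a kinase of late small subunit maturation, was at 90.3, 78.7 and 88.6 CPM in controls and 72.2, 58.1 and 59.7 CPM in anti-LILRB4 libraries, without overlap (log2 fold change -0.44, edgeR adjusted p 0.477). Mybbp1a, a nucleolar protein, was at 7.73, 12.9 and 13.97 CPM in controls and 23.3, 22.8 and 15.0 CPM in anti-LILRB4 libraries, without overlap (0.82, edgeR adjusted p 0.506). The other 2 were Fbl, the methyltransferase fibrillarin, lower at -0.35, and Ncl, nucleolin, higher at 0.29. Rrn3, a factor of RNA polymerase I and the most abundant of the list, was at -0.24.

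The list of mTORC1 and TOP control genes ran opposite to the members in control 1. Of its 17 genes 4 were negative and 13 positive, with a median of 0.23 (0.15 without control 1), and 1, Myc, was lower at an unadjusted p under 0.05. In control 1 the list's median level was -0.22 relative to the control mean, where that of the members was 0.24. Longer transcripts were lower in control 1 more widely, with a Spearman's rho of -0.26 over 12097 other protein-coding genes. Some genes of the list are long, such as Rptor (6594 bases) and Larp1 (6614 bases), and the part of length was not tested. Myc, which drives transcription of ribosomal protein genes, was at 48.7, 65.0 and 58.5 CPM in controls and 34.8, 50.3 and 46.0 CPM in anti-LILRB4 libraries, overlapping groups, at a log2 fold change of -0.39 (edgeR adjusted p 0.612). Rheb, the activator of mTORC1, was at -0.30 and Rptor, its substrate-binding subunit and the most abundant of the list, at 0.29. Larp1, which binds the TOP motif, was at 13.5, 21.9 and 17.1 CPM in controls and 23.1, 28.8 and 18.4 CPM in anti-LILRB4 libraries, overlapping groups, a log2 fold change of 0.42. With the length and GC correction Rptor was at 0.13 and Larp1 at 0.31, while Myc was at -0.46 and Rheb at -0.33.

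The ribosome quality control list covers the handling of stalled ribosomes and, with Mdm2, of free ribosomal proteins. It had 4 negative and 4 positive of 8, with a median of 0.00. Nemf, which marks stalled large subunits, was at 109, 113 and 111 CPM in controls and 99.8, 87.4 and 86.1 CPM in anti-LILRB4 libraries, without overlap (log2 fold change -0.28, edgeR adjusted p 0.566). Ascc3, a helicase that splits collided ribosomes, was at -0.43 with overlapping groups.

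**Figure D5:**
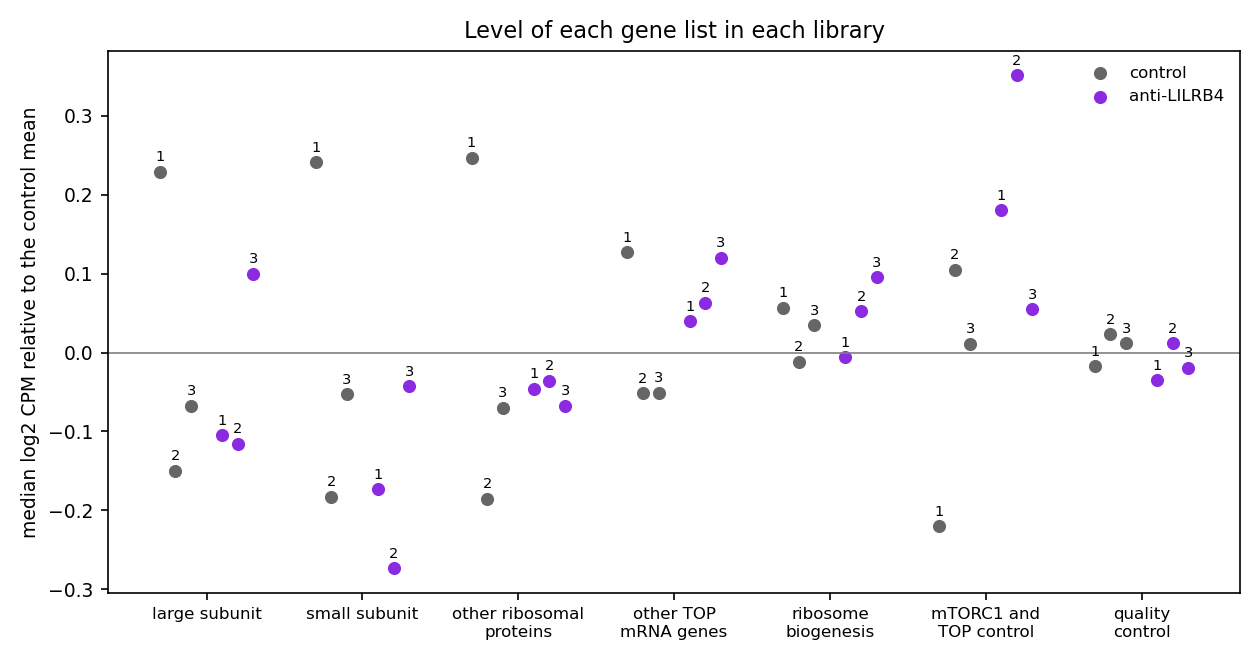
Median log2 CPM relative to the control mean (y axis) of each gene list (x axis) in the 3 control (grey) and 3 anti-LILRB4 (purple) libraries, with replicate numbers. Control 1 is at 0.23 and 0.24 for the large and small subunit and at -0.22 for the mTORC1 and TOP control genes.

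The authors' deposited table, whose columns are those of DESeq2, listed 74 of the 79 members, 48 with a negative log2 fold change and a median of -0.11. At an adjusted p of 0.05, 0 members were called there, where 0.981% of its 19059 genes with an adjusted p were. The smallest adjusted p of a member in the authors' deposited table was 0.0532, for Rpl4.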

How the data were processed

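RNA was sequenced from 3 control and 3 anti-LILRB4 libraries, grouped by the sample titles. The deposited table holds raw read counts per Ensembl gene. Of tools, the submitters' processing notes list DESeq2 1.38.3, Salmon, STAR and featureCounts (Subread), with no roles. No build, annotation or treatment of multiply matching reads is given in the sources used here. Per the file headers, the authors' second table holds a mean signal (scaled counts), p-values before and after adjustment, a log2 fold change with its error, and the score that is their ratio. Of 55780 rows, 287 were dropped as repeats of an identifier with the same counts. Total counts of 39805118 to 56345514 per library make counting error small for all but the lowest members.

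Counts were fitted in edgeR 4.0.16 (R 4.3.3; filterByExpr with a minimum count of 10, TMM, quasi-likelihood F test, no covariate) on 18210 genes and adjusted by Benjamini-Hochberg over all of them. Log2 CPM used a prior count of 2. DESeq2 1.42.0, limma 3.58.1, other scalings and filters, a length and GC correction, a replicate block and leaving out each library were alternatives. The length in that correction was the merged exon length of a gene, not its coding transcript length. The edgeR test was checked on simulated data, in which the changed genes moved by more than any member did here. That check does not cover changes as small as those reported. Lengths, overlaps and gene positions come from GENCODE M21 (GRCm38), whose starts matched the authors' coordinates for 2.05% of 24360 genes, so none of theirs is printed. Promoter windows come from RefSeq (GRCm38.p6). Figures used matplotlib 3.10.9 (Python 3.11.15).

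The members and lists were chosen with earlier results of these data known. The genes named were, by rule, the 6 members per subunit with the smallest p, the 3 most and 3 least abundant, members with known roles and paralogs, the largest departures in each library, and of each pathway list the 2 with the smallest p and the most abundant. A few others (such as Rpl17, Rps26 and Larp1) were added after their values were seen. The results for some genes are not reported here.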

Additional observations from a re-analysis of the deposited data

How the results depend on the processing

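No member passed edgeR's adjusted threshold under any edgeR setting, and the changes below concern counts at an unadjusted p under 0.05 and small fold changes. The cause of each was not tested. DESeq2 called 1 member (Rpl4, large subunit) higher, and over all genes 85 lower and 84 higher, where edgeR without a filter on low counts called 117 and 183. Members lower at the unadjusted threshold (6 in the fit reported) numbered 10 in limma-voom and with upper quartile scaling, and 14 with no filter or with protein-coding genes only. For the large subunit (3) the last pair gave 5 each. For the small subunit (3) the number was 5 with a minimum of 1 CPM in 3 libraries and with the length and GC correction, 6 in limma-voom and with upper quartile scaling, and 9 with no filter and with protein-coding genes only. Upper quartile scaling left 1 higher member, of the large subunit.

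With the replicate number as a block, 13 members were lower (5 large and 8 small subunit), and no call changed. The deviations of same-numbered libraries from their group means had correlations of 0.01, 0.03 and -0.01. The highest correlation, of control 1 with anti-LILRB4 3, was 0.04. Such values cannot decide whether the numbers mark a shared litter, batch or day, since a small shared effect could leave them near 0. The paralog list's median (-0.24) was -0.56 under the block and -0.56 in limma-voom, and the quality control list's was -0.027 with upper quartile scaling.

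Leaving out each library in turn gave 1 to 24 members lower and 1 to 4 higher (large subunit 0 to 11 and 1 to 4, small subunit 1 to 13 lower), the highest count without control 2. The median log2 fold change then ran from -0.17 to 0.040 for ribosomal proteins outside the name rule, 0.065 to 0.15 for other TOP genes, -0.0018 to 0.082 for biogenesis, -0.0093 to 0.047 for quality control, -0.29 to -0.0084 for the P stalk and -0.50 to -0.023 for the paralogs. The large minus small gap ran from 0.10 to 0.19.

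Log2 fold changes near 0 changed sign. Rpl13a was 0.0098 by library size only, 0.0085 in limma-voom, 0.0078 with pseudogene rows and 0.025 with the block. Rps10 was -0.030 with the length and GC correction and -0.12 with pseudogene rows. With that correction Rps27l was 0.014, Rpl11 -0.015 and Rpsa -0.025, and Rpl11 was -0.0021 with upper quartile scaling. Rpl36al was 0.012 in limma-voom and 0.016 with the block. Leaving out single libraries gave ranges of -1.43 to 0.21 for Rpl39l, -0.18 to 0.21 for Rpl13a, -0.013 to 0.17 for Rpl3, -0.17 to 0.15 for Rps10, -0.045 to 0.11 for Rpl11, -0.030 to 0.15 for Rps4x, -0.20 to 0.035 for Rpl22, -0.20 to 0.011 for Rpl22l1, -0.084 to 0.054 for Rpl7l1, -0.24 to 0.31 for Rpl36al, -0.051 to 0.15 for Rpsa and -0.23 to 0.040 for Rack1.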
